A study of Rattus norvegicus with 18 samples.

Results

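The comparison described here is between bone marrow mesenchymal stem cell (BMSC) cultures from rats fed a normal diet (ND) for 4 months and cultures from rats fed the same diet for 2 months. Its members were the 6 arrays whose titles give those feeding times, 3 per group, of 18 arrays in all. The animals were Sprague-Dawley rats, an outbred strain, that entered the study at 6 weeks of age, and ND was 100% basal diet. The age field of the labels repeats the feeding time, so the age at collection is not stated apart from it. A further 12 arrays cover ND at 1 month and a high-fat diet (HFD, 60% basal diet made up with 20% lard, 10% egg yolk powder and 10% sucrose) at 1, 2 and 4 months. BMSCs were grown by plating whole marrow and passaging what adhered. Cells were taken at passage 3 by the sample labels but at passage 1 by the series text, and the labels do not settle which. Total RNA of each culture was measured on 1 Affymetrix rat expression array. The labels give 3 samples per group and do not say that each culture came from its own animal, so p-values measure the spread between these cultures.

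Cultures started from whole marrow hold stromal cells that adhere and divide, and can carry macrophages that also adhere. Stromal progenitors give rise to bone, fat and cartilage cells, make the matrix and niche factors of the marrow, and respond to WNT, BMP and TGF-beta ligands. Their sterol synthesis is set by SREBP2, a transcription factor that is released when cell cholesterol is low and that drives nearly every enzyme of the pathway. RNA of a whole culture was measured, so fewer cells of a type and less RNA per cell cannot be told apart.

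No gene differed between the 4-month and the 2-month ND cultures by more than the spread between cultures allows after adjustment for all probe sets. In limma's moderated test 0 of 21729 probe sets (0%) had a Benjamini-Hochberg adjusted p below 0.05, the threshold for passing, and the lowest adjusted p was 0.127. At an unadjusted p under 0.05 there were 1604 probe sets (7.38%), and 5% of those tested is 1086. That count depended on the arrays in the fit. It was 1050 with only the 6 compared ND arrays and 1158 with only the 9 ND arrays. The lowest adjusted p was then 0.616 and 0.621. Without a single array the count ran from 1091, without the first ND 2-month culture, to 2176, without the second ND 4-month culture. Among the genes with the strongest statistics were Spon1, Frzb, Sema6a, Ephb4 and Cog5, lower at 4 months, and Cep152, Adam3a, Ifrd1 and Shc4, higher at 4 months. As groups, the 20 measured genes of cholesterol synthesis and uptake all lay lower at 4 months, and the 53 measured genes of cell cycle and DNA replication all lay higher. Of all genes 44.8% lay higher. The values of the feeding times did not overlap in 12 of the 20, against 7.36% of all genes in that direction. They overlapped in all 53 cell cycle genes, whose list mean was lowest in the second 4-month culture.

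Of 11446 named genes, each read from its brightest tested probe set, 814 (7.11%) had an unadjusted p under 0.05, with 274 higher (2.39%) and 540 lower (4.72%) at 4 months. In 1246 genes (10.9%) the 3 values of one feeding time did not overlap the 3 of the other, 404 of them higher (3.53%) and 842 lower (7.36%). A log2 difference above 0 was found in 44.8% of genes, and the median gene difference was -0.02. The 4-month arrays correlated with each other at a mean r of 0.967 over 3 pairs, the 2-month arrays at 0.961 over 3 pairs, and 4-month with 2-month arrays at 0.966 over 9 pairs, as a description across probe sets. The mean between the feeding times lay between the 2 means within them.

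Stromal surface markers and leukocyte markers were both measured in these cultures. Thy1, the CD90 antigen of stromal cells, lay between 11.73 and 12.02 log2 intensity in the 4-month cultures and between 11.90 and 11.98 in the 2-month cultures. Nt5e, the CD73 antigen, lay between 7.91 and 8.26 at 4 months and between 6.67 and 8.51 at 2 months. These levels of different probe sets are not compared with one another. Ptprc, which encodes the pan-leukocyte antigen CD45 that stromal cells lack, measured 7.08, 7.96 and 5.81 in the 4-month cultures, against 7.56, 6.82 and 4.60 in the 2-month cultures. Cd68, a lysosomal protein of macrophages, gave 9.74, 10.78 and 9.08 at 4 months, against 10.68, 10.66 and 6.65 at 2 months. For both genes the third 2-month culture was the lowest of the 6, and the groups overlapped.

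None of the 30 tested macrophage and monocyte genes, of 34 listed, passed, and 0 had an unadjusted p under 0.05. The mean of the 25 members with a value on every array, centred for each gene over all arrays, was 0.39, 1.76 and 0.05 in the 4-month cultures, against 1.63, 1.54 and -1.79 in the 2-month cultures. The direction of the list followed the third 2-month culture: its median was 0.31 with 25 of 30 genes higher at 4 months, and without it the median was -0.80 with 29 of 30 lower. Aif1, a calcium-binding protein of macrophages, had 7.63, 9.43 and 7.12 in the 4-month cultures and 8.89, 8.95 and 5.20 in the 2-month cultures. Lyz2, the macrophage lysozyme, had 12.76, 12.94 and 12.00 at 4 months and 12.92, 12.93 and 11.00 at 2 months. Mmp12, the macrophage elastase, had the largest statistic of the list, with 11.73, 8.94 and 9.77 at 4 months, against 9.98, 8.57 and 5.80 at 2 months, and a difference of 2.03 ± 0.99 (SE). Aif1 and Mmp12 were fitted without ND 1-month replicate 1, which has no value for them. Markers of other marrow cells were thinly measured, and 0 of them passed: 5 of 16 granulocyte and mast cell genes, 7 of 16 lymphocyte genes, 5 of 13 erythroid genes, 6 of 14 endothelial genes and 4 of 11 osteoclast genes were bright enough to be tested.

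Dividing-cell genes separated the 4-month cultures from one another more than from the 2-month cultures. The mean of the cell cycle list, over its 50 members with a value on every array, was 0.88, -0.55 and 1.23 in the 4-month cultures, against -0.19, 0.28 and 0.02 in the 2-month cultures. The second 4-month culture was the lowest of the 6, and the other 4-month cultures were the highest. Mki67, the Ki-67 proliferation antigen, measured 8.57, 7.40 and 8.72 at 4 months and 7.56, 7.85 and 7.46 at 2 months. Top2a, the topoisomerase that untangles replicated DNA, measured 8.19, 6.73 and 8.60 at 4 months and 6.73, 7.31 and 7.13 at 2 months. Cdk1, the kinase that drives mitosis, measured 9.43, 7.98 and 9.80 at 4 months and 8.03, 8.83 and 8.64 at 2 months, with no value on ND 1-month replicate 1. In all of these the same 4-month culture was at or below the 2-month range.

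All 53 tested cell cycle genes, of 61 listed, had a difference above 0, with a median of 0.50 and a range of 0.16 to 0.80. Of them 1 reached an unadjusted p under 0.05, against 2.39% of all genes in that direction, 0 passed, and the groups separated in 0, against 3.53% of all genes. Prim1, the DNA primase that starts replication, was that gene, at 0.61 ± 0.28 (SE). Pole2, a polymerase epsilon subunit, stood at 0.66 ± 0.32 (SE) and E2f8, an E2F-family regulator, at 0.76 ± 0.40 (SE). Without the second 4-month culture the list's median was 1.02 and 50 of the 53 genes had an unadjusted p under 0.05, beside 2176 of 21729 probe sets in either direction, and without the third it was 0.13 with 43 of 53 genes above 0.

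**Figure D1:**
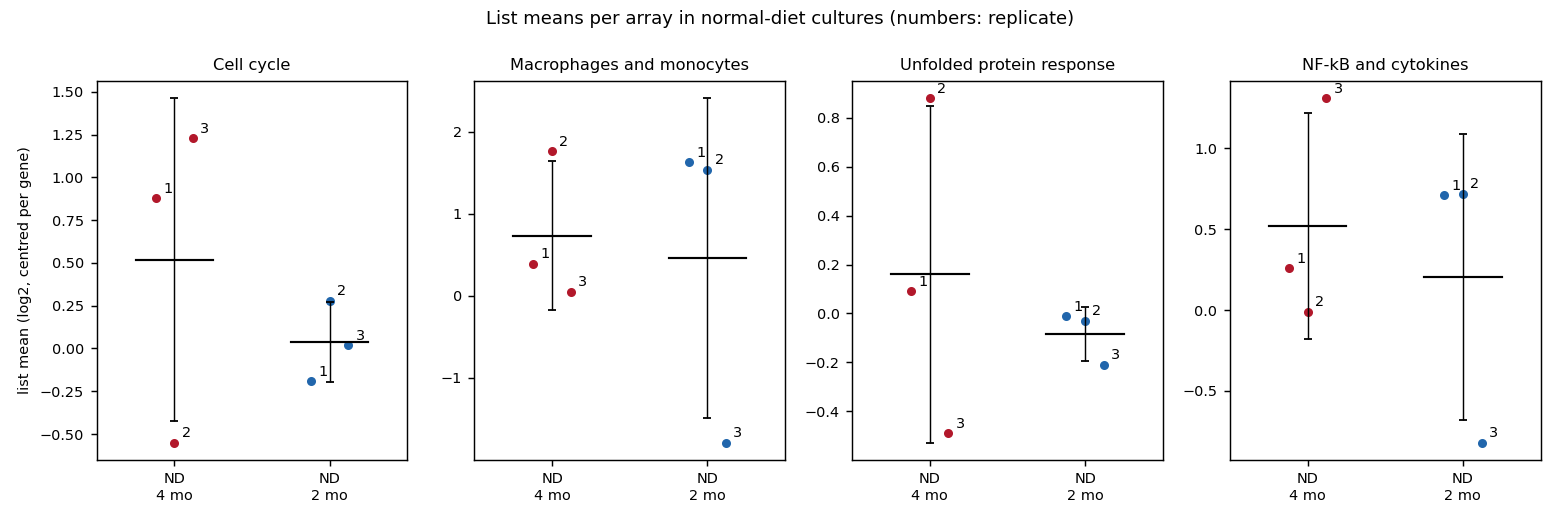
Mean of 4 gene lists on each ND array (log2, each gene centred over 18 arrays), ND 4 months left of ND 2 months; points are arrays with their replicate number, bars the mean and SD of 3. The third 2-month culture is low in macrophage genes (-1.79), the second 4-month culture low in cell cycle genes (-0.55) and high in unfolded protein response genes (0.88), and the third 4-month culture high in NF-kB genes (1.31).

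Of the 8 genes of lowest moderated t, none passed. Spon1 (Entrez Gene 64456), which encodes the secreted matrix protein F-spondin, measured 4.27, 5.30 and 4.00 log2 intensity at 4 months, against 7.60, 8.11 and 7.82 at 2 months. Its 3 values of 4 months all lay below those of 2 months, and the difference of -3.32 ± 0.67 (SE, adjusted p = 0.259) did not pass. Frzb (Entrez Gene 295691), a secreted WNT antagonist of the sFRP family, measured 3.28, 2.95 and 2.99 at 4 months, against 4.97, 4.03 and 4.10 at 2 months. The groups did not overlap, at -1.29 ± 0.23 (SE, adjusted p = 0.150), and the 4-month values lay around 3.22, the mean level below which probe sets were not tested. Frzb measured 3.00, 3.56 and 3.47 in ND at 1 month and between 2.90 and 3.64 in the HFD cultures, so the ND 2-month cultures were the ones that stood apart. Sema6a (Entrez Gene 361324), a membrane-bound semaphorin of cell guidance, measured 3.41, 3.33 and 3.21 at 4 months, against 4.99, 4.52 and 4.30 at 2 months. Its groups did not overlap either, near the same dim level, at -1.29 ± 0.23 (SE, adjusted p = 0.150). In ND at 1 month Sema6a measured 5.20, 4.66 and 4.81.

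Ephb4 (Entrez Gene 686310), the receptor of ephrin-B2 on neighbouring cells, measured 6.40, 6.30 and 5.84 at 4 months, against 7.12, 6.87 and 7.03 at 2 months. Cog5 (Entrez Gene 314030), a subunit of the Golgi tethering complex COG, measured 6.40, 6.50 and 6.65 at 4 months, against 7.39, 7.32 and 7.04 at 2 months. Both separated the groups, at -0.83 ± 0.14 and -0.74 ± 0.12 (SE), and both had an adjusted p of 0.136. The other 3 of the 8 lowest moderated t values were those of Mpzl1, a surface glycoprotein that binds the phosphatase SHP2, Fbxo46, an F-box adaptor of ubiquitin ligases, and Trim2, a ubiquitin ligase. They stood at -0.56, -0.59 and -0.52 with adjusted p of 0.182, 0.243 and 0.259. Trim2 was read by 3 tested probe sets, whose differences ran from -0.52 to -0.11.

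Of the 8 genes of highest moderated t, none passed. Cep152, a scaffold on which new centrioles form, measured 5.55, 5.81 and 5.78 at 4 months, against 5.01, 4.98 and 4.51 at 2 months, a difference of 0.88 ± 0.18 (SE, adjusted p = 0.259). Ckap5, which adds tubulin to growing microtubules, measured 7.79, 7.71 and 7.88 at 4 months, against 7.11, 7.38 and 7.45 at 2 months, a difference of 0.48 ± 0.11 (SE, adjusted p = 0.325). Neither overlapped between the groups, and a link between these genes and the cell cycle list was not tested.

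Shc4, an adaptor of receptor tyrosine kinases, measured 5.03, 5.69 and 6.03 at 4 months, against 4.59, 4.75 and 3.88 at 2 months, a difference of 1.18 ± 0.25 (SE, adjusted p = 0.272). Emp2, a small membrane protein that binds integrins, measured 6.69, 7.54 and 6.61 at 4 months, against 5.87, 6.06 and 6.18 at 2 months, and its 2 probe sets gave 0.91 and 0.55. Ccdc71l measured 7.12, 7.0 and 6.88 at 4 months, against 6.38, 6.23 and 6.31 at 2 months, a difference of 0.70 ± 0.15 (SE, adjusted p = 0.290). These 3 genes also separated the groups without passing. Adam3a, a metalloprotease family member best known from sperm, Ifrd1, a transcriptional co-regulator, and Pabir2 completed the 8 highest moderated t values, at 0.68, 0.56 and 0.60. Adam3a was dim, between 3.48 and 3.81 at 4 months and between 2.76 and 3.22 at 2 months, and Ifrd1 was fitted without ND 1-month replicate 1, which has no value for it.

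All 16 genes of highest and lowest t kept their sign whichever of the 18 arrays was left out. This could not have come out otherwise and is no test of them. Their groups did not overlap, so leaving out a compared array could not turn the sign. Arrays of the other groups do not enter the difference. The 16 genes were chosen by their t, so the lack of overlap in all 16 describes them and tests nothing.

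**Figure D2:**
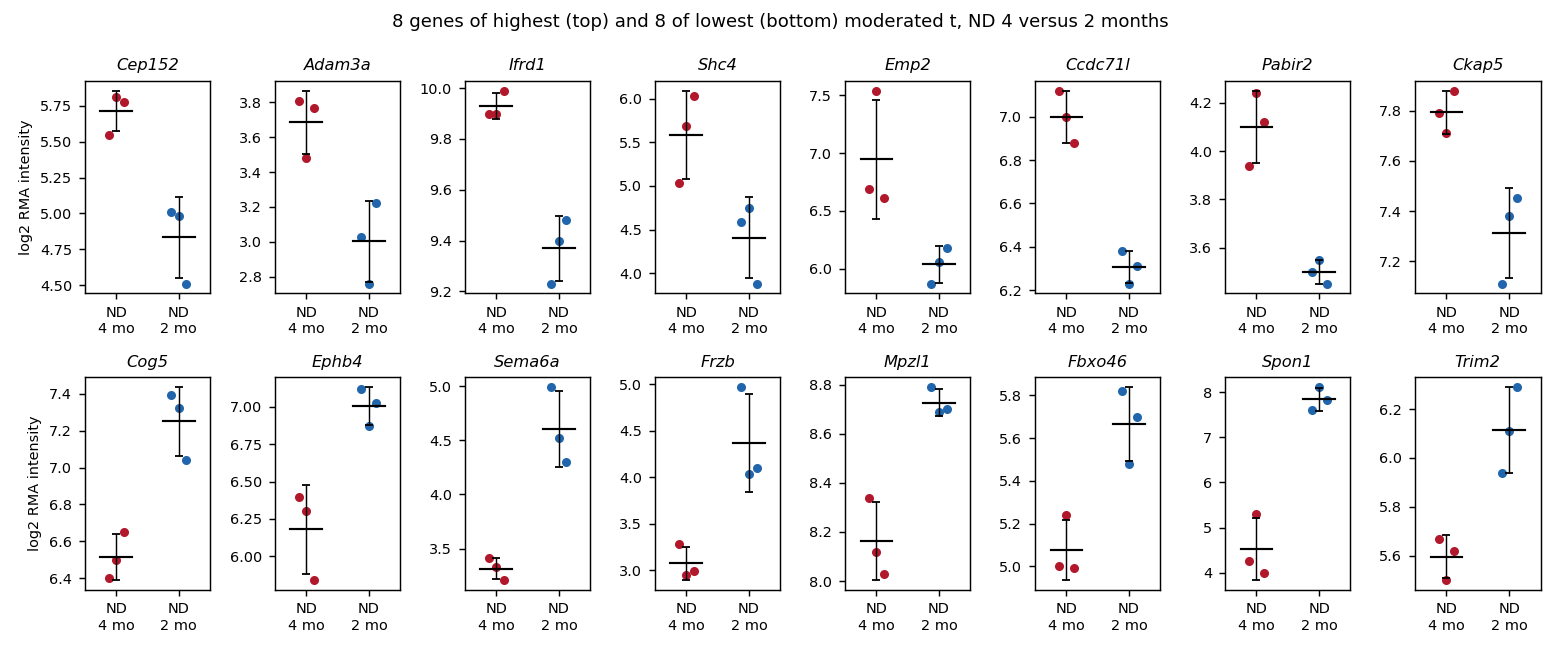
Log2 RMA intensity of the 8 genes of highest moderated t (upper panels) and the 8 of lowest (lower panels), ND 4 months left of ND 2 months; points are arrays, bars the mean and SD of 3. The groups do not overlap in any panel, and the widest gap is that of Spon1, with 4.00 to 5.30 at 4 months and 7.60 to 8.11 at 2 months.

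The genes of cholesterol synthesis and uptake shared a direction. All 20 tested genes, of 25 listed, had a difference below 0, with a median of -0.54 and a range of -0.86 to -0.16. In 12 of them the 4-month values all lay below the 2-month values, against 7.36% of all genes, and 10 had an unadjusted p under 0.05 in that direction, against 4.72% of all genes. No member passed the adjusted threshold. Over the 12 members with a value on every array, the list mean was -0.01, -0.06 and -0.34 at 4 months, against 0.55, 0.12 and 0.29 at 2 months, and the groups did not overlap. The ND 1-month cultures, which enter no test here, had 0.55, 0.50 and -0.01.

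Early in the pathway, Acat2, which joins acetyl-CoA units, stood at -0.66 ± 0.30 (SE). The mevalonate enzymes that follow gave -0.47 for mevalonate kinase Mvk, -0.32 for phosphomevalonate kinase Pmvk and -0.86 for mevalonate diphosphate decarboxylase Mvd. Mvd measured 7.21, 7.49 and 6.90 at 4 months, against 8.31, 7.79 and 8.09 at 2 months. Isoprenoid assembly gave -0.50 for the isomerase Idi1 and -0.42 for farnesyl diphosphate synthase Fdps. Fdft1, squalene synthase and the first step committed to sterols, measured 8.21, 8.02 and 7.90 at 4 months, against 9.01, 8.65 and 8.81 at 2 months, a difference of -0.78 ± 0.26 (SE). Up to squalene, then, Mvd and Fdft1 had the largest differences, while Mvk, Pmvk and Idi1 overlapped between the groups.

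Squalene epoxidase Sqle stood at -0.66 and lanosterol synthase Lss at -0.59, the second with one very low 4-month value, 7.49, beside 8.82 and 9.10. After lanosterol, Cyp51, the demethylase, stood at -0.55 and Tm7sf2, a reductase, at -0.42. Msmo1, the methyl sterol oxidase, had the strongest statistic of the list (unadjusted p = 0.00224, adjusted p = 0.452). It measured 10.20, 9.95 and 9.77 at 4 months, against 10.75, 10.51 and 10.94 at 2 months, a difference of -0.76 ± 0.20 (SE). Its partner in removing the methyl groups, Nsdhl, measured 8.97, 8.71 and 8.52 at 4 months, against 9.72, 9.20 and 9.69 at 2 months, a difference of -0.80 ± 0.25 (SE). Both separated the groups.

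The last steps gave -0.52 for Hsd17b7, -0.20 for the isomerase Ebp, -0.45 for the desaturase Sc5d and -0.79 for Dhcr7, the final reductase. Of the regulators, Insig1, which holds SREBP in the endoplasmic reticulum and is itself an SREBP target, measured 9.78, 9.64 and 9.11 at 4 months, against 10.50, 10.13 and 10.38 at 2 months, at -0.83 ± 0.31 (SE). Srebf2, which encodes SREBP2, stood at -0.16 ± 0.17 (SE) and the sterol carrier Stard4 at -0.23 ± 0.31 (SE), and both overlapped between the groups. Acat2, Fdps, Sqle, Cyp51, Hsd17b7, Sc5d and Dhcr7 also separated the groups, and Lss, Tm7sf2 and Ebp overlapped. These are readings of the brightest probe set. The other probe sets of Sc5d (-0.29 and -0.24) and of Hsd17b7 (-0.54) overlapped, while a dimmer one of Stard4 (-0.53) separated the groups. Those of Cyp51 (-0.66), Fdft1 (-0.55) and Nsdhl (-0.75) separated them too. Msmo1, Mvd, Fdft1, Insig1, Dhcr7, Cyp51, Mvk and Fdps were fitted without ND 1-month replicate 1, which has no value for them.

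The direction of this list held in all 20 genes without any one of the 6 compared arrays, with medians from -0.68 to -0.43. Arrays of the other groups do not enter the difference. In the 12 genes whose groups did not overlap, leaving out 1 array could not turn the sign. The count at an unadjusted p under 0.05 was lowest, at 4, without the first 2-month culture and without the third 4-month culture, and 6 without the third 2-month culture. With the macrophage list mean as a covariate the median was -0.57, and with the cell cycle list mean -0.61.

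The upstream sequences of the 3 leading members with a RefSeq entry are shown as examples of promoters that hold one short element. Capitals mark CCAAT, read on either strand (ATTGG on the strand printed), the box bound by NF-Y, a factor that works beside SREBP on sterol gene promoters. Each line is the 250 bases before the RefSeq start of the gene (build GRCr8), printed on the gene's strand, at chr16:29746863-29747112 (plus strand) for Msmo1, chrX:155817110-155817359 (plus strand) for Nsdhl and chr19:67414975-67415224 (minus strand) for Mvd.
Msmo1: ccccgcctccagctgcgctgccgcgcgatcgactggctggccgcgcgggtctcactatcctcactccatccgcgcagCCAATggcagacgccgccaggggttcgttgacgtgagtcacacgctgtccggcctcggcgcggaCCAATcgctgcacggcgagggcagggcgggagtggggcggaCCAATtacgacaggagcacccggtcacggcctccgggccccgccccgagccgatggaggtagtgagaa
Nsdhl: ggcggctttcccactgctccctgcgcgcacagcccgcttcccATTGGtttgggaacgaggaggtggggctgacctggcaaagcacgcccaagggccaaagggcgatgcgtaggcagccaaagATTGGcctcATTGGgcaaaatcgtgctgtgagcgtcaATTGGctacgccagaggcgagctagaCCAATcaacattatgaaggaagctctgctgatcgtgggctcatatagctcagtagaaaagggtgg
Mvd: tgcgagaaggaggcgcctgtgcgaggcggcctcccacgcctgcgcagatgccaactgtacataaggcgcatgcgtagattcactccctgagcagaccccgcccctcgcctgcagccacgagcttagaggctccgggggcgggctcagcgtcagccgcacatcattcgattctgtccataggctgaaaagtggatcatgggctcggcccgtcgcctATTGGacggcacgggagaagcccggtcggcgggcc
CCAAT begins 173, 109 and 68 bases before the start in Msmo1, 208, 128, 119, 91 and 65 before it in Nsdhl, and 35 before it in Mvd. Of the 20 list members 16 matched a RefSeq promoter entry by symbol, and Fdft1, Sqle, Pmvk and Stard4 did not. CCAAT on either strand occurred in this window in 13 of the 16 (81.2%), against 34.0% of all 33469 promoter entries. Srebf2 itself and Insig1 were among the 13, and Dhcr7, Cyp51 and Acat2 had none in this window. Dhcr7, Cyp51 and Acat2 nevertheless separated the groups. Of the genes with CCAAT, Msmo1, Nsdhl, Mvd, Insig1, Sc5d, Hsd17b7 and Fdps separated the groups. Srebf2, Lss, Tm7sf2, Ebp, Mvk and Idi1 had it and overlapped. These matches describe letters in a window, and a link between CCAAT and the ND differences was not tested.

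**Figure D3:**
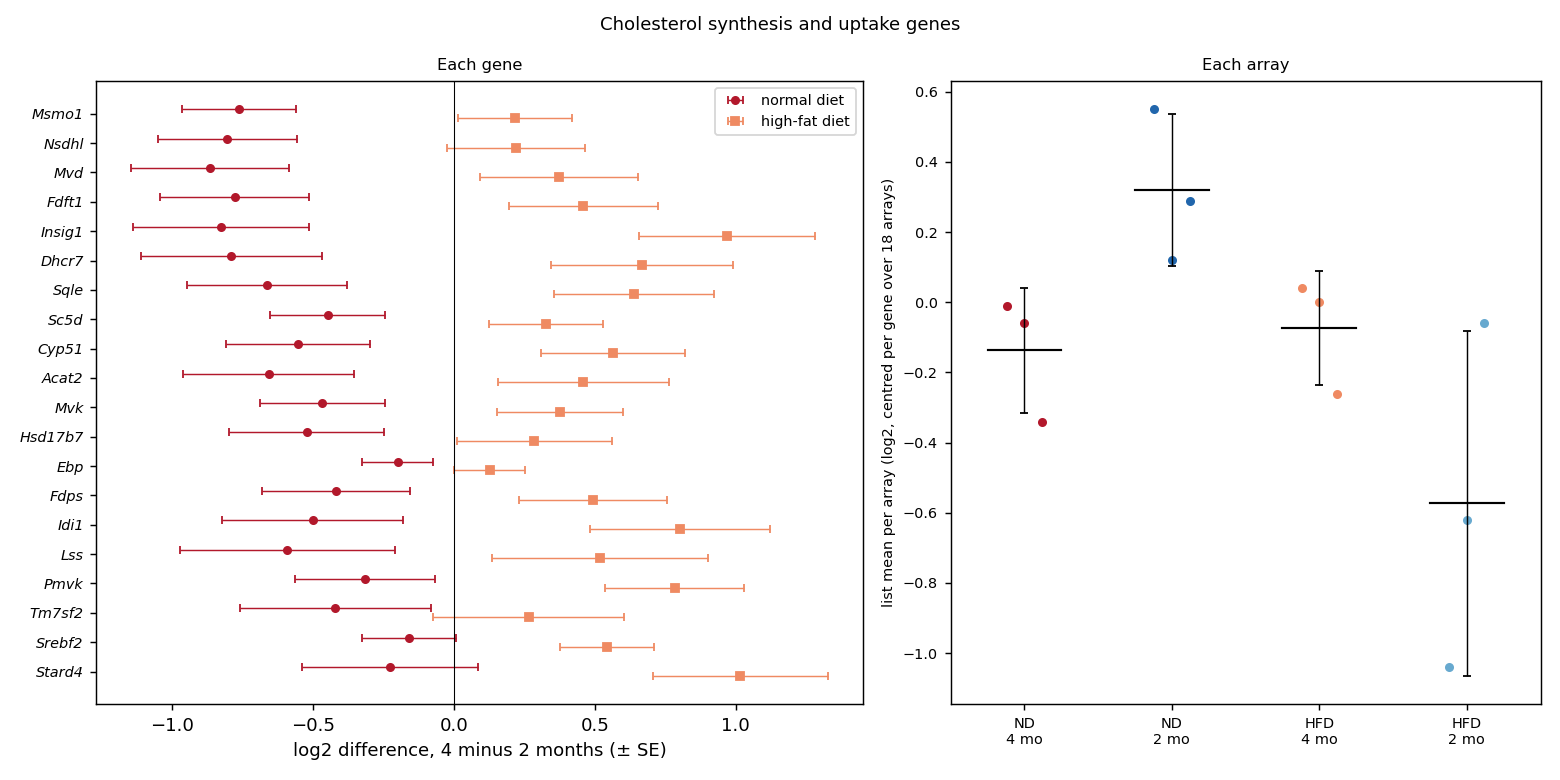
Left, log2 difference of 4 minus 2 months with its SE for each of the 20 cholesterol genes, in ND (circles) and HFD (squares), ordered by their ND statistic. Right, the list mean of each array (log2, each gene centred over 18 arrays) with mean and SD of 3, 4 months left of 2 months in each diet; ND differences are all below 0 and HFD differences all above 0.

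The same 20 genes lay on the other side in HFD cultures. Their HFD differences of 4 minus 2 months were all above 0, as in 48.8% of all genes, with a median of 0.48. The HFD list means were 0.04, 0.00 and -0.26 at 4 months, against -1.04, -0.62 and -0.06 at 2 months, so the third HFD 2-month culture lay within the HFD 4-month range. The difference between the diets was tested gene by gene with an interaction term, and 0 of the 20 passed. Insig1 had the lowest adjusted p of the 20, 0.245, with a difference between diets of -1.79.

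Genes of fatty acid and triglyceride synthesis lay mostly lower as well, with 23 of 24 tested below 0, a median of -0.25 and 0 passing. Lpin1, a phosphatidate phosphatase of triglyceride synthesis, measured 5.42, 5.50 and 4.71 at 4 months, against 6.65, 5.99 and 6.65 at 2 months, a difference of -1.22 ± 0.35 (SE). Its groups did not overlap, and its other probe set gave -0.73. The related Lpin2 stood at -0.44 ± 0.17 (SE), fatty acid synthase Fasn at -0.30 ± 0.14 (SE, without ND 1-month replicate 1) and acetyl-CoA synthetase Acss2 at -0.98 ± 0.48 (SE). A dimmer probe set of Lpin2 gave -0.001 and overlapped, and a dimmer one of Fasn gave -0.52 and separated the groups. Acss2 overlapped between the groups and had 1 low 4-month value, 6.14, beside 7.48 and 7.97. Fatty acid oxidation and PPAR target genes gave 12 of 19 below 0 and a median of -0.10.

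**Figure D4:**
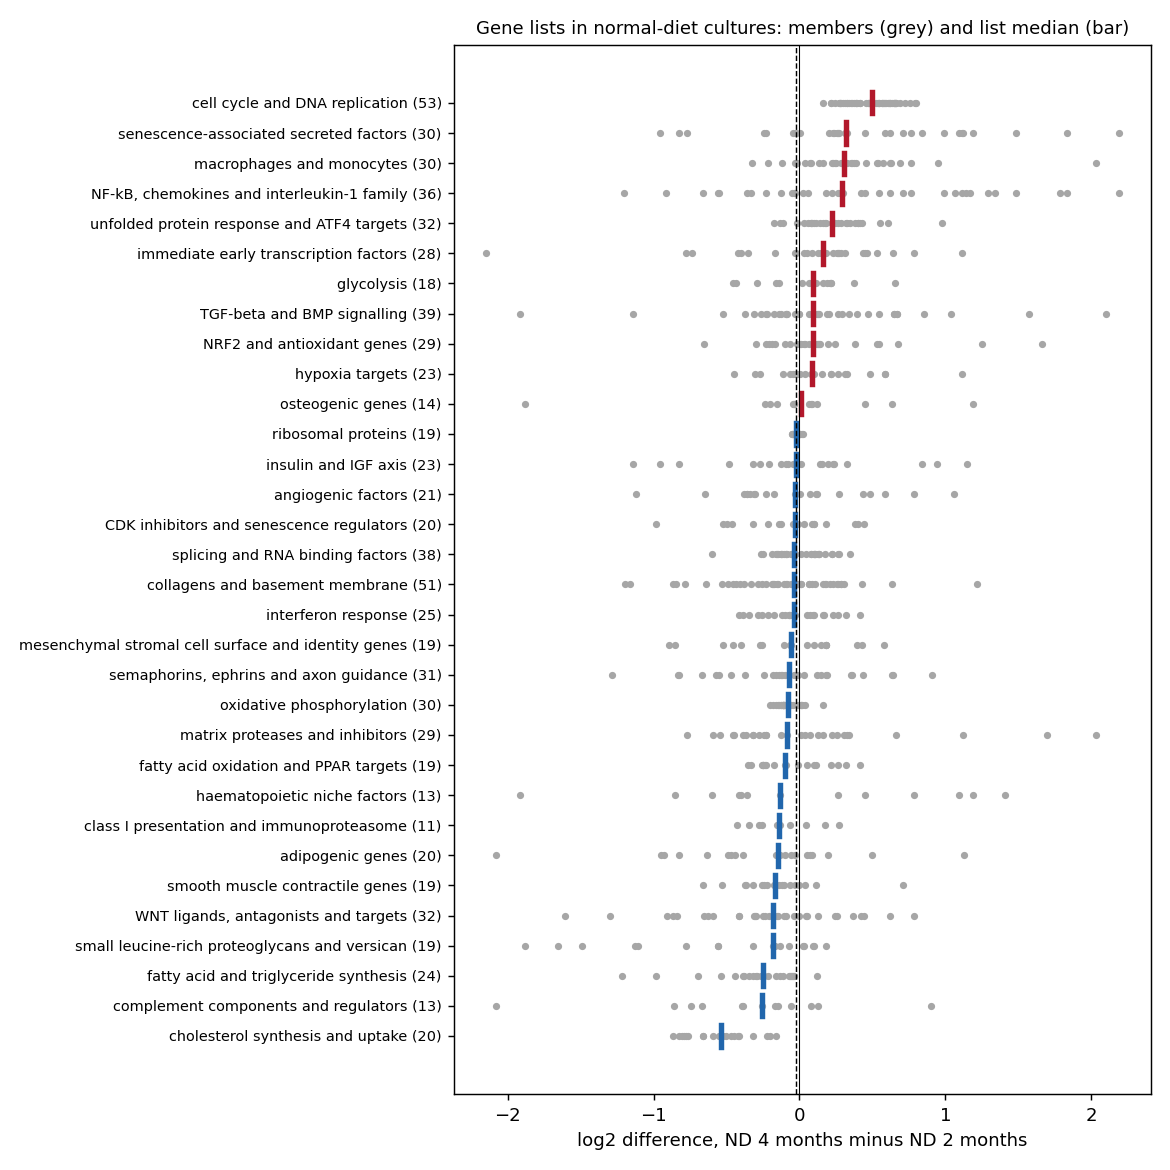
Log2 difference of ND 4 minus ND 2 months for the members (grey points) of each list with at least 10 tested genes, the number tested in brackets; coloured bars are list medians and the dashed line the median of all genes (-0.02). The cholesterol list stands lowest, at -0.54, and the cell cycle list highest, at 0.50.

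WNT antagonists were among the genes lower at 4 months. Of 32 tested genes of the WNT list 22 lay below 0, with a median of -0.18, and 5 had an unadjusted p under 0.05, all of them lower, against 4.72% of all genes: Frzb, Sfrp1, Lrp6, Axin2 and Sfrp4. Sfrp1 (Entrez Gene 84402), a secreted antagonist that binds WNT ligands, measured 9.12, 9.61 and 8.91 at 4 months, against 11.08, 10.37 and 11.02 at 2 months, a difference of -1.61 ± 0.47 (SE, adjusted p = 0.491). Its groups did not overlap, and its 3 probe sets lay between -1.62 and -1.57. The co-receptor Lrp6 stood at -0.84 ± 0.38 (SE) and Axin2, a feedback target of the pathway, at -0.30 ± 0.14 (SE). Sfrp4, named after its values were seen, stood at -0.91 ± 0.42 (SE, without ND 1-month replicate 1) and overlapped. The list therefore held antagonists, a co-receptor and a target gene on the same side.

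In the list of semaphorins, ephrins and axon guidance, 20 of 31 tested genes lay below 0, with a median of -0.07. Besides Ephb4 and Sema6a, its strongest members were on the other side: Emp2, which the list holds although it is no guidance gene, and Unc5b, a netrin receptor, at 0.63 ± 0.23 (SE). Unc5b measured 9.64, 9.73 and 9.97 at 4 months, against 8.79, 9.03 and 9.63 at 2 months, and the groups came within 0.01 of each other. A dimmer probe set of Unc5b gave 0.34 and overlapped.

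Among antioxidant genes regulated by NRF2, the cystine transporter and the quinone reductase stood apart. Slc7a11, which imports cystine for glutathione, measured 7.36, 7.40 and 7.13 at 4 months, against 5.79, 5.76 and 5.34 at 2 months, a difference of 1.66 ± 0.49 (SE, adjusted p = 0.492). Nqo1, the quinone reductase, measured 10.35, 10.60 and 10.22 at 4 months, against 9.20, 8.37 and 9.85 at 2 months, a difference of 1.25 ± 0.38 (SE, adjusted p = 0.505). Both separated the groups and neither passed. Txnrd1, a thioredoxin reductase, stood at 0.19 ± 0.11 (SE), while Gpx4, which reduces lipid peroxides, stood at -0.23 ± 0.10 (SE). The list as a whole gave 20 of 29 tested genes above 0 and a median of 0.09.

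Secreted and inflammatory genes lay higher in part of the 4-month cultures. Spp1, which encodes the matrix protein osteopontin, measured 12.68, 11.97 and 12.03 at 4 months, against 11.33, 10.93 and 10.85 at 2 months, a difference of 1.19 ± 0.37 (SE, adjusted p = 0.509). It separated the groups. The senescence-associated secreted factors gave 23 of 30 above 0 and a median of 0.32, with Spp1, the growth factor Ereg (0.99 ± 0.34, SE; dim at 2 months, with 3.21, 2.95 and 3.47) and the cytokine Csf2 (1.09 ± 0.50, SE) on one side and the plasminogen activator Plat (-0.77 ± 0.30, SE) on the other. Csf2 rested on the third 4-month culture, with 3.84, 3.39 and 6.33 at 4 months, against 3.46, 3.59 and 3.23 at 2 months, and stood at 0.19 without it. Spp1 and Plat were fitted without ND 1-month replicate 1.

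Of the NF-kB, chemokine and interleukin-1 list 24 of 36 tested genes lay above 0, with a median of 0.29. Its 4 members with an unadjusted p under 0.05, against 2.39% of all genes in that direction, were higher: the prostaglandin synthase Ptgs2 (1.17 ± 0.52, SE), the feedback inhibitors Nfkbia (1.06 ± 0.48, SE) and Tnfaip3 (0.99 ± 0.46, SE), and nitric oxide synthase Nos2 (0.30 ± 0.13, SE). Ptgs2 measured 8.05, 7.64 and 8.93 at 4 months, against 7.50, 7.63 and 6.00 at 2 months, with no value on ND 1-month replicate 1. The third culture of each feeding time made most of the gap, and the list mean was 0.26, -0.01 and 1.31 at 4 months, against 0.71, 0.72 and -0.82 at 2 months. That 2-month culture is the one with the lowest macrophage list mean, -1.79. Without it the list's median was 0.00, and without the third 4-month culture it was 0.01.

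Stress genes of the unfolded protein response lay above 0 in 28 of 32 tested members, with a median of 0.22 and 0 at an unadjusted p under 0.05. Their list mean was 0.09, 0.88 and -0.49 at 4 months, against -0.01, -0.03 and -0.21 at 2 months. The second 4-month culture held the list up: without it the median was -0.16 with 8 of 32 genes above 0.

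Matrix genes lay on both sides of 0. Small leucine-rich proteoglycans, versican and their partners lay below 0 in 14 of 19 tested genes, with a median of -0.18. Lum, which encodes lumican, measured 10.91, 10.58 and 11.45 at 4 months, against 11.65, 11.55 and 12.07 at 2 months, a difference of -0.78 ± 0.21 (SE, without ND 1-month replicate 1). Sdc2, a heparan sulfate proteoglycan, stood at -0.56 ± 0.23 (SE) and the hyaluronan synthase Has2 at -1.11 ± 0.48 (SE). Dcn, which encodes decorin, measured 7.46, 9.93 and 10.54 at 4 months, against 11.03, 10.98 and 10.87 at 2 months, so the first 4-month culture made most of its difference of -1.65 ± 0.71 (SE).

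Collagens and basement membrane genes split 19 above and 32 below 0 of 51 tested, with a median of -0.04. Lama4, a laminin chain of basement membranes, measured 8.44, 8.82 and 8.25 at 4 months, against 9.16, 9.44 and 9.26 at 2 months, a difference of -0.78 ± 0.16 (SE, adjusted p = 0.259). Its second probe set gave 0.09 and was dim, with means of 3.14 at 4 months and 3.05 at 2 months, below the 3.22 filter level. Fn1, fibronectin, differed little but evenly, with 12.55, 12.59 and 12.59 at 4 months, against 12.36, 12.39 and 12.34 at 2 months (0.21 ± 0.08, SE).

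Among the leading members of TGF-beta and BMP signalling, a signal transducer and a ligand lay lower and a SMAD repressor and a BMP response gene lay higher. Smad3, which carries the TGF-beta signal to the nucleus, measured 7.42, 7.20 and 6.35 at 4 months, against 8.44, 7.70 and 8.26 at 2 months, a difference of -1.14 ± 0.31 (SE, adjusted p = 0.452), and its groups did not overlap. The ligand Bmp4 stood at -1.92 ± 0.80 (SE). Skil, a repressor of SMADs, stood at 0.65 ± 0.24 (SE) without overlap, and Id1, a BMP response gene, at 1.57 ± 0.63 (SE). Id1 measured 8.82, 6.88 and 9.54 at 4 months, against 6.49, 7.56 and 6.47 at 2 months, the same order of 4-month cultures as in the cell cycle list, and with that list mean as a covariate it stood at 1.0. The list gave 22 of 39 above 0 and a median of 0.09.

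Genes of the fates open to these cells lay on both sides of 0, and 0 passed. Osteogenic genes gave 7 of 14 above 0 and a median of 0.01, and of these only Spp1 had an unadjusted p under 0.05. Adipogenic genes gave 6 of 20 above 0 and a median of -0.15, with Cebpa, an adipogenic transcription factor, at -0.63 ± 0.38 (SE) and Cfd, the adipocyte protease adipsin, at -2.08 ± 1.05 (SE). Cfd measured 5.08, 7.62 and 4.32 at 4 months, against 7.37, 7.28 and 8.59 at 2 months, and overlapped. Smooth muscle contractile genes gave 16 of 19 below 0 and a median of -0.17. Smtn, smoothelin, measured 8.47, 8.39 and 8.04 at 4 months, against 8.80, 8.88 and 9.21 at 2 months, a difference of -0.66 ± 0.18 (SE, adjusted p = 0.452), and the myosin light chain Myl9 stood at -0.37 ± 0.21 (SE). Stromal identity genes gave 9 of 19 above 0, with the transcription factor Prrx1 at -0.45 ± 0.18 (SE), the niche chemokine Cxcl12 at -0.85 ± 0.47 (SE), the growth factor receptor Pdgfrb at -0.52 ± 0.30 (SE) and the hyaluronan receptor Cd44 at 0.58 ± 0.36 (SE). The dimmer probe sets of Pdgfrb gave -0.31 and -0.18 and overlapped.

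Oxidative phosphorylation genes lay below 0 in 25 of 30 tested members by small amounts, with a median of -0.08, and ribosomal protein genes in 15 of 19 with a median of -0.02. CDK inhibitors and senescence regulators gave 8 of 20 above 0 and a median of -0.03. Complement genes lay below 0 in 10 of 13, with a median of -0.26, and Serping1, the C1 inhibitor, stood at -0.86 ± 0.42 (SE). Interferon response genes gave 10 of 25 above 0, and Ifitm3, a membrane antiviral protein, and Stat2, a transducer of interferon signals, stood at -0.26 ± 0.10 and -0.41 ± 0.16 (SE). A dimmer probe set of Stat2 gave -0.17, and both Stat2 probe sets overlapped. Among immediate early factors Fosl1 stood at 1.11 ± 0.39 (SE, without ND 1-month replicate 1) and the nuclear receptor Nr4a3 at -2.15 ± 0.94 (SE), and among RNA binding factors the cold-inducible Cirbp stood at -0.60 ± 0.16 (SE). The dimmer probe sets of Nr4a3 gave -1.73 and -0.11, the latter with overlap. None of these genes passed.

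Feeding time was also compared within HFD, whose arrays are separate from those of ND. HFD 4-month against HFD 2-month cultures gave 153 called probe sets of 21729 (0.704%), 63 higher and 90 lower at 4 months. Of the 814 genes (7.11%) at an unadjusted p under 0.05 in ND and 2137 (18.7%) in HFD, 136 were in both with the same sign, which is 16.7% of the ND genes and 6.36% of the HFD genes, and 48 were in both with opposite signs. Of the 16 genes named above for ND, 11 had the same sign in HFD, as had 55.4% of all genes. Trim2 was the one whose HFD difference, -0.72, also lay past the adjusted threshold in the same direction (adjusted p = 0.0188).

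The interaction term, which tests whether the ND difference departs from the HFD difference, called 0 probe sets (0%), with 2060 (9.48%) at an unadjusted p under 0.05 and a lowest adjusted p of 0.052. That lowest value belonged to Sfrp1 and Ccdc71l. Sfrp1, lower at 4 months in ND, measured 10.08, 10.17 and 8.63 in HFD at 4 months, against 6.36, 6.51 and 7.91 in HFD at 2 months, an HFD difference of 2.70 (adjusted p = 0.0275) and a difference between diets of -4.31. Ccdc71l, higher at 4 months in ND, measured 6.42, 6.32 and 6.66 in HFD at 4 months, against 7.33, 7.47 and 7.04 in HFD at 2 months, an HFD difference of -0.81 (adjusted p = 0.0352) and a difference between diets of 1.51. In both genes neither diet's groups overlapped, and the 2 diets lay on opposite sides.

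The next 4 genes of the interaction were Ppip5k1, Rbm11, C1r and Lgals9. Ppip5k1, an inositol pyrophosphate kinase, stood at 0.55 ± 0.19 (SE) in ND without overlap and at -1.0 in HFD (HFD adjusted p = 0.0382, interaction adjusted p = 0.139). The RNA binding protein Rbm11, the complement protease C1r and the galectin Lgals9 owed their place to HFD, with -1.16, 1.13 and 1.91 there, while their ND differences were 0.10, -0.15 and -0.37 and their ND groups overlapped. Rbm11 was dim in ND, with means of 3.24 at 4 months and 3.14 at 2 months.

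**Figure D5:**
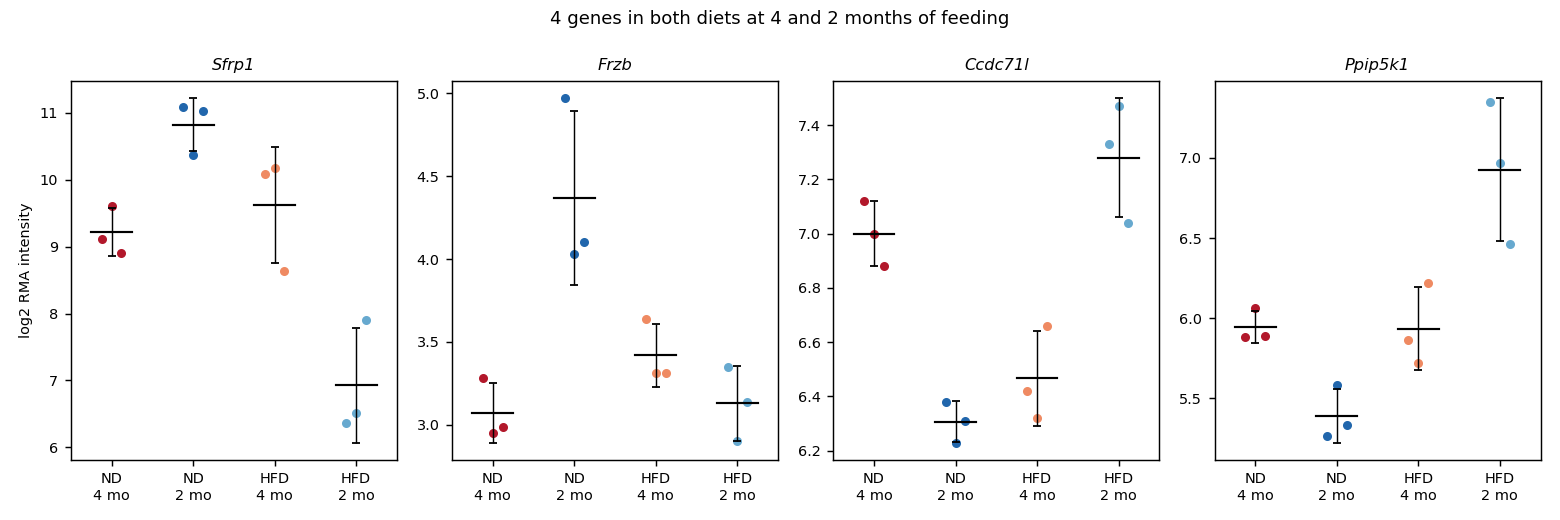
Log2 RMA intensity of Sfrp1, Frzb, Ccdc71l and Ppip5k1 on each array, ND left of HFD and 4 months left of 2 months within each diet; points are arrays, bars the mean and SD of 3. Sfrp1 lies lower at 4 months in ND (8.91 to 9.61, against 10.37 to 11.08) and higher at 4 months in HFD (8.63 to 10.17, against 6.36 to 7.91).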

How the data were processed

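RNA of rat BMSC cultures was measured on Affymetrix arrays. The authors deposited linear intensity per probe set, summarised with RMA (no version given) per the submitters' processing notes, and these were converted to log2 without a constant. For ND 1-month replicate 1 the deposited column was offset by 1343 rows. Its values correlated with the average of the remaining arrays at 0.0909 as they stood and at 0.990 once realigned. The realigned column was used and leaves 1066 tested probe sets empty there. Array controls (57) and the dimmest 30% of the other probe sets, at or below 3.22 log2, were left out. Probe sets were named from the platform annotation (20832 with 1 symbol, 436 with several, 9831 with none), with gene identifiers looked up in RefSeq GRCr8.

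The 6 group means were estimated jointly from 18 arrays by lmFit and eBayes of limma 3.58.1 under R 4.3.3, with 12 residual and 2.43 prior degrees of freedom and two-sided tests. Adjusted p-values are Benjamini-Hochberg over 21729 probe sets. The script was tested on simulated data. The 3 arrays per group limit the precision, and array medians lay between 25.4 and 27.1 in intensity. Same-numbered ND cultures did not deviate together (correlations -0.20, -0.04 and -0.01), so they were not paired.

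Named genes were to be up to 12 called and non-overlapping per direction. With none called, the 8 highest and 8 lowest moderated t stand in, with up to 4 leading members of each list described, all cholesterol members, the 6 genes of lowest interaction p, and Cd68, Ptprc, Aif1, Lyz2, Mki67, Top2a and Cdk1. The comparison, its gene lists and tests were chosen with earlier results of these data known. Lists are described by counts and medians and were not tested. A list mean per array covers the members with a value on every array, each centred over the 18 arrays. Alternatives were other filters, normalizations, variance models, sets of arrays, array weights, a replicate block, macrophage and cell cycle covariates, and each array left out.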

Additional observations from a re-analysis of the deposited data

How the results depend on the processing

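In ND 4 against 2 months, 0 probe sets were called under every alternative but these: 20 with array weights (10 higher, 10 lower), and 0 to 1 without a single array, the 1 without the first ND 4-month culture. With the replicate number as a block 0 were called; the samples share only a number. Of the named genes, Adam3a, Cog5, Fbxo46, Frzb, Lama4, Sema6a and Spon1 passed with array weights and no named gene under another setting. The interaction called 0, but 640 with array weights, 5 with median centring, 5 without probe sets open to cross-hybridization, 5 without probe sets lacking a value on the displaced array, 2 with the cell cycle covariate and 0 to 91 without a single array, the 91 without the third HFD 2-month culture. HFD 4 against 2 months called 153, but 263 after quantile normalization, 3213 with array weights, 42 with the replicate block, 99 without probe sets open to cross-hybridization, 5 with the macrophage covariate, 4 with the cell cycle covariate, 0 with a 1.5-fold minimum, 0 with the displaced column as deposited, and 0 to 1073 without a single array, 0 without the first HFD 2-month or the second HFD 4-month culture. Fewer arrays, another filter, covariates and array weights change more than 1 thing in the fit, and the cause of each shift was not tested. Macrophage markers turned with single cultures. Without a single array Cd68 ranged from -0.80 to 1.21, Ptprc from -0.24 to 1.24, Aif1 from -0.86 to 1.01 and Lyz2 from -0.35 to 0.61, each lowest without the third ND 2-month culture, and with array weights Cd68 stood at -0.40, Aif1 at -0.68 and Lyz2 at -0.017. Rbm11 ranged from -0.059 to 0.20 without a single array. Among the named genes, intensities near the filter level limit Frzb, Sema6a, Adam3a, Pabir2, Rbm11, Ereg and Csf2.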
